A study of Danio rerio with 26 samples.

Results

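Transcript levels of 9 zebrafish genes that encode poly(A)-binding and cap-binding translation factors were followed from growing oocytes to the gastrula. The genes were taken by name: a row of the embryo table was used where its gene name was pabpc1a, pabpc1b, pabpc1l, pabpc4, pabpn1, eif4e1b, eif4ea, eif4eb or eif4enif1, and it was joined to the oocyte and knockdown tables by gene identifier. Each name matched 1 identifier, so the set is 9 of the 32520 genes listed. The matching used names and no measured value, but the list of names was drawn up with earlier results of these data known.

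A translated mRNA is held at its tail by cytoplasmic poly(A)-binding proteins and at its cap by eIF4E, and both contact the scaffold eIF4G. Full-grown oocytes and cleaving embryos make little new RNA, so that the proteins they make depend on which stored mRNAs have a long tail and an accessible cap. Vertebrate oocytes carry their own versions of both proteins. pabpc1l encodes embryonic poly(A)-binding protein, which in Xenopus and mouse is the form of oocytes, while pabpc1a and pabpc1b encode the general cytoplasmic form. eif4e1b encodes an oocyte-enriched eIF4E that in Xenopus and zebrafish is tied to repressed maternal mRNAs, while eif4ea and eif4eb encode the general cap-binding form. eif4enif1 encodes 4E-T, which binds eIF4E and holds mRNAs in a silent state, and pabpn1 encodes the nuclear poly(A)-binding protein.

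RNA was measured by sequencing in 26 libraries that fall into 10 groups and 3 tables. The oocyte table holds isolated wild-type oocytes of stages I, II, III and IV, with 2 libraries per stage and 50 oocytes per library. The embryo table holds wild-type whole embryos at 0, 2, 4 and 6 hours post fertilisation (hpf), with 3 libraries per time and 20 embryos per library. The knockdown table holds whole embryos at 4 hpf, 3 libraries labelled znf281b KD and 3 labelled pCas13d alone. pCas13d names the Cas13d nuclease, an RNA-cutting enzyme directed by guide RNAs, so the control embryos carry it too. All groups are labelled with the strains AB, TF and TLF. Stage I and II oocytes were taken 1 to 2 days after the females had been purged of mature eggs, stage III at 4 to 7 days and stage IV at 8 to 10 days. Collagenases I and II freed the oocytes of stages I and II and collagenase I those of stage III, whereas stage IV oocytes were stripped by hand without enzyme. Stages I and II therefore share their collection days and enzymes, whereas between these and stage III, and between stages III and IV, stage, collection day and isolation method cannot be told apart. The oocyte and embryo replicates are stated to be biological. For the knockdown libraries nothing says how the replicates arose, so their p-values measure only the spread between these libraries.

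Values are TPM, in which each transcript's share is corrected for its length and a library sums to 1000000, so levels of different genes can be compared within a library. TPM keeps no read depth, and no counting error is given. The 7 oocyte markers were detected in every oocyte library and summed to between 2263 and 6544 TPM there. The 5 early zygotic markers summed to at most 1.31 TPM at 0 and 2 hpf, and to between 241 and 575 TPM at 4 and 6 hpf. In the knockdown table the targeted gene, znf281b, measured 219, 269 and 267 TPM with pCas13d alone and 149, 147 and 171 TPM in the knockdown libraries, a log2 change of -0.69 ± 0.11 (SE, limma adjusted p = 0.00991), in the direction of the label. Oocyte markers summed to between 609 and 737 TPM with pCas13d alone and to between 891 and 909 TPM in the knockdown libraries, and early zygotic markers to between 548 and 872 and between 445 and 521 TPM. The oocyte markers did not move together, as values looked up afterwards show. buc measured 180, 172 and 78.8 TPM with pCas13d alone and 398, 401 and 388 TPM in the knockdown, and bmp15 10.2, 14.4 and 5.45 against 19.8, 19.5 and 20.7 TPM. ddx4 was lower in the knockdown, at 272, 270 and 292 against 297, 322 and 350 TPM, and the groups overlapped for zp3b, zar1, gdf9 and figla. In all these samples fewer cells of a type and less RNA per cell cannot be told apart.

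The most abundant of the 9 transcripts was pabpc1a in all 10 groups. At stage II its 2 libraries overlapped those of eif4e1b. Its mean ranged from 259 TPM at 4 hpf to 432 TPM at 6 hpf among the embryos, and from 512 TPM at stage II to 1290 TPM at stage IV among the oocytes. At 0 hpf the order below it was pabpc1l, eif4enif1, pabpn1, eif4e1b, eif4eb, eif4ea and pabpc1b, and no neighbours in that order overlapped between their 3 libraries. At 4 hpf pabpc1l (65.1 ± 10.4 TPM, SD, n = 3), pabpn1 (63.7 ± 5.03 TPM) and eif4enif1 (53.8 ± 10.3 TPM) each overlapped the next in the order, and eif4e1b (44.0 ± 1.59 TPM), which followed eif4enif1, lay above eif4eb without overlap.

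At 6 hpf the order was pabpc1a, pabpn1, eif4enif1, eif4ea, eif4e1b, pabpc1l, eif4eb and pabpc1b. There eif4enif1 overlapped eif4ea, and eif4ea overlapped eif4e1b. In oocytes eif4e1b and pabpc1l followed pabpc1a at all 4 stages and overlapped each other at each of them. pabpc1b was last but for pabpc4 at stages I to III, and at stage IV it stood next to pabpn1, whose libraries its own spanned. pabpc4, the gene of a further cytoplasmic poly(A)-binding protein that in mammals is inducible in T cells, was close to absent. It reached at most 0.19 TPM in any of the 26 libraries and was listed at 0 in 6 of them. It did not pass the filter at 1 TPM, so 8 of the 9 members were tested in every comparison at that filter. At the alternative filter of 5 TPM pabpc1b was not tested in embryos either.

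**Figure D1:**
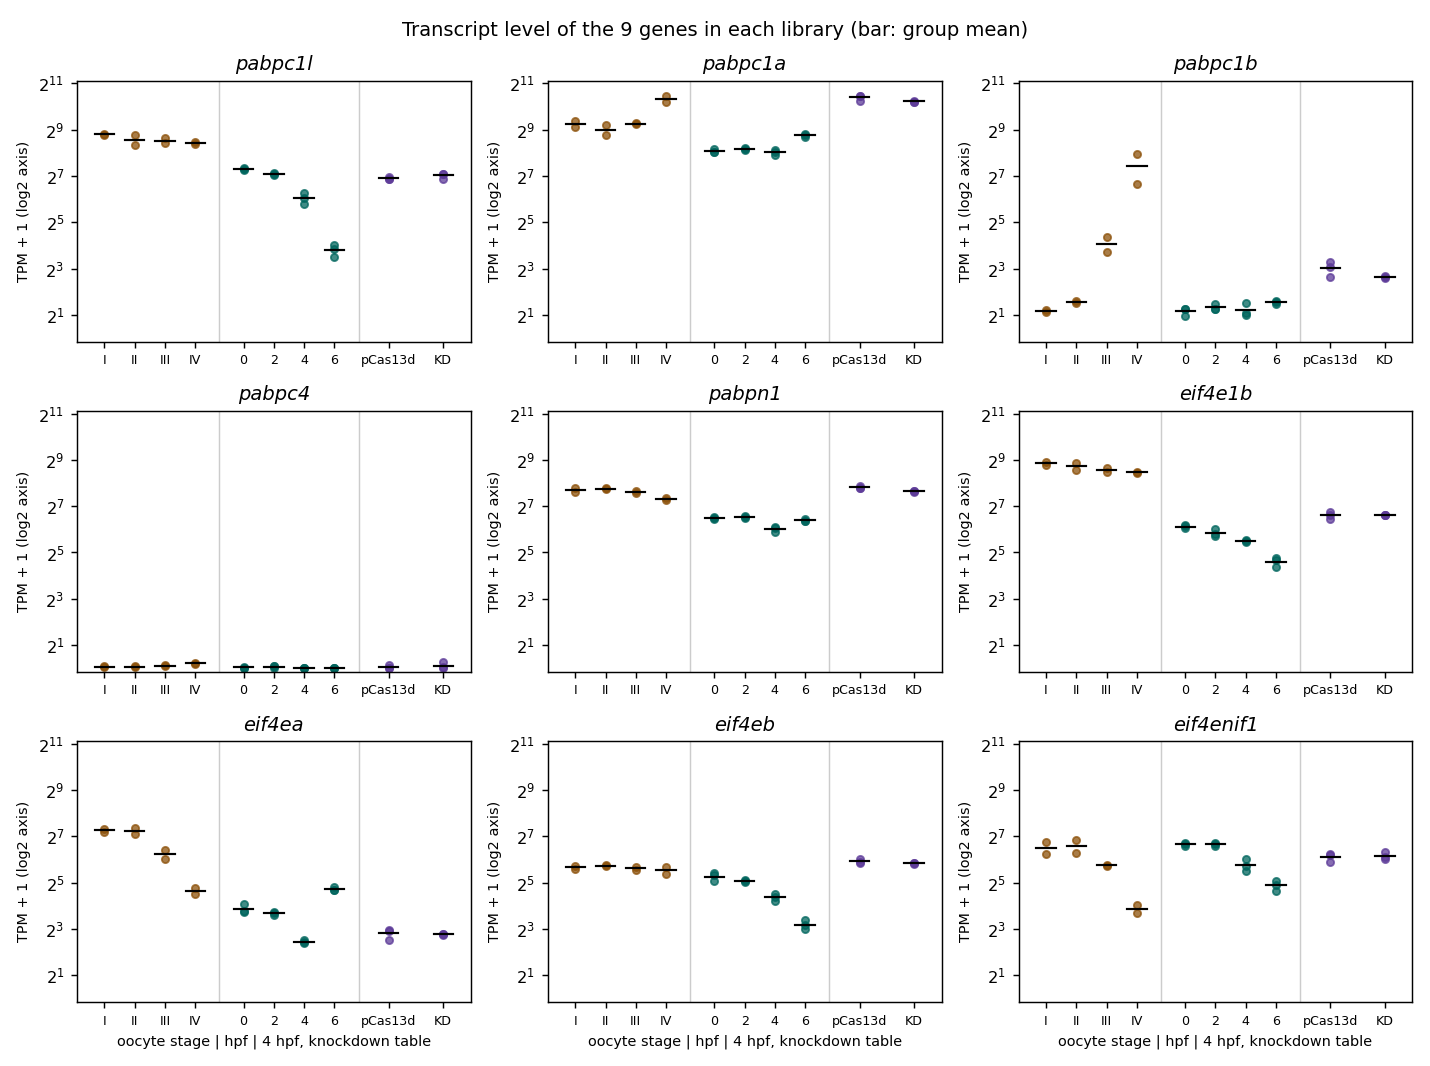
TPM + 1 on a log2 axis for each of the 9 genes in every library, with oocyte stages I to IV, embryos at 0 to 6 hpf and the 2 knockdown-table groups from left to right; points are libraries and bars are group means. The 3 tables were normalised separately, so steps across the grey lines are not tested. pabpc1l declines over the embryo times while pabpc1a is highest at 6 hpf, and pabpc1b is above 12 TPM in the oocyte libraries of stages III and IV and in no other library.

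Between 0 and 2 hpf, before the zygotic genome is broadly transcribed, limma called none of the 8 tested members in either direction. Over all 16328 genes tested 0% were called higher and 0.0122% lower. At an unadjusted p under 0.05 there was 1 member, eif4e1b, with a log2 change of -0.27 ± 0.11 (SE), beside 625 of all 16328 genes. Median-of-ratios scaling, which rescales each library so that the typical gene stays level, also called 0 members here.

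Between 2 and 4 hpf 6 of the 8 tested members fell and 0 rose, against 54.7% and 11% of all genes tested. The median log2 change was -0.61 over the members and -0.43 over all genes. Between 4 and 6 hpf 3 members rose and 4 fell, against 22.8% and 55.8% of all genes, and the medians were -0.27 and -0.56. From 0 to 6 hpf 3 rose and 4 fell, against 21.9% and 67.2%, and the medians were -0.80 and -1.06. A shift of this size in the median of all genes means that the sign of a TPM change depends on what is held level. After median-of-ratios scaling the median of all genes lay at 0.05, 0.12 and 0.15 for these 3 comparisons, and the members called were 1 up and 3 down, 4 up and 2 down, and 4 up and 3 down. Over all genes the split moved with it, from 1803 higher and 8924 lower to 4235 and 3540 between 2 and 4 hpf, from 3717 and 9119 to 7116 and 5911 between 4 and 6 hpf, and from 3578 and 10978 to 7464 and 6474 between 0 and 6 hpf. The changes from 2 hpf on are therefore also given relative to the median of all genes, and a change of direction under scaling is named with them.

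The oocyte-type poly(A)-binding protein transcript fell from 2 hpf on. pabpc1l measured 164, 159 and 153 TPM at 0 hpf, 138, 132 and 135 TPM at 2 hpf, 64.5, 55.0 and 75.8 TPM at 4 hpf and 10.3, 13.5 and 15.1 TPM at 6 hpf. The 4 times did not overlap, each lying below the one before. Its log2 change was -1.05 ± 0.13 (SE, limma adjusted p = 2.31e-05) from 2 to 4 hpf, or -0.62 relative to the median gene. From 4 to 6 hpf it was -2.25 ± 0.13 (adjusted p = 8.50e-09), or -1.69 relative to the median gene. From 0 to 6 hpf it was -3.53 ± 0.13 (adjusted p = 6.76e-11), or -2.47 relative to the median gene and -2.12 after scaling.

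The general form took the other course. pabpc1a measured 260, 263 and 290 TPM at 0 hpf, 298, 284 and 277 TPM at 2 hpf, 258, 240 and 278 TPM at 4 hpf and 415, 451 and 431 TPM at 6 hpf. The first 3 times overlapped and every 6 hpf library stood above all the earlier ones. It rose by 0.74 ± 0.08 on the log2 scale from 4 to 6 hpf (limma adjusted p = 2.33e-06) and by 0.67 ± 0.08 from 0 to 6 hpf (adjusted p = 3.61e-06), or by 1.30 and 1.74 relative to the median gene. From 2 to 4 hpf its change was -0.15 ± 0.08 (adjusted p = 0.124) on TPM as deposited, was 0.29 relative to the median gene and turned to a called rise of 0.43 after scaling. Without 4 hpf replicate 3 it was -0.20 with an adjusted p of 0.0415.

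pabpc1b, the second general copy, stayed between 0.96 and 2.06 TPM in all 12 embryo libraries. From 2 to 4 hpf it changed by -0.14 ± 0.16 (SE, limma adjusted p = 0.444), which was not called. Relative to the median gene that change was 0.29, and after scaling it turned to 0.17, also not called. Its values were 0.96, 1.38 and 1.42 TPM at 0 hpf and 2.06, 1.97 and 1.77 TPM at 6 hpf, which do not overlap. The change from 0 to 6 hpf, 0.39 ± 0.16 (SE, limma adjusted p = 0.038), passed the threshold narrowly, and was 1.45 relative to the median gene. It did not pass without 0 hpf replicate 1 (0.29, adjusted p = 0.144), without 6 hpf replicate 1 (0.35, adjusted p = 0.0918) or without 6 hpf replicate 2 (0.38, adjusted p = 0.0747), nor with a pseudocount of 0.1 or no filter. From 4 to 6 hpf its change of 0.36 ± 0.16 (adjusted p = 0.0581), or 0.92 relative to the median gene, was called after scaling (1.00), without a mean trend in the variance (adjusted p = 0.0418) and without 4 hpf replicate 3 (0.52, adjusted p = 0.00736). Reads of pabpc1a and pabpc1b, which are close copies, can be split between them in counting, and their sequences were not compared here. pabpc1b was 0.448% to 0.538% of pabpc1a in the 4 embryo group means. In the knockdown table it was 0.531% with pCas13d alone and 0.437% in the knockdown. There pabpc1b averaged 7.20 and 5.23 TPM beside pabpc1a at 1343 and 1198 TPM. Whether any of these reads came from pabpc1a was not tested.

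In growing oocytes many of the same members were called. From stage I to IV limma called pabpc1a, pabpc1b, eif4enif1 and eif4ea, all also called from 0 to 6 hpf, and pabpn1, which was not. Of those called in both, only eif4ea went in opposite directions. Between stages I and II limma called 0 of the 8 tested members, and 0 after scaling, against 0.156% of all 16067 genes called higher and 0.0187% lower. At an unadjusted p under 0.05 there were also 0 members, beside 1833 of all 16067 genes. Between stages II and III 1 rose and 1 fell, against 2% and 0.529%. Between stages III and IV 2 rose and 2 fell, against 14.3% and 13.3%. From stage I to stage IV 2 rose and 3 fell, against 22.9% and 22.4%, and the median log2 change was -0.39 over the members and -0.07 over all genes.

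pabpc1l passed the threshold in no oocyte comparison. It measured 446 and 443 TPM at stage I, 442 and 319 TPM at stage II, 396 and 341 TPM at stage III and 352 and 333 TPM at stage IV. Stages II, III and IV overlapped, and both stage I libraries lay above them, though only just above the higher one of stage II. The change from stage I to IV was -0.37 ± 0.19 (SE, limma adjusted p = 0.136).

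pabpc1a measured 659 and 556 TPM at stage I, 584 and 439 TPM at stage II, 630 and 599 TPM at stage III and 1397 and 1182 TPM at stage IV. Stage I overlapped stages II and III, both stage II libraries lay below both of stage III, and both stage IV libraries lay above all the others. It rose by 1.06 ± 0.20 on the log2 scale from stage III to IV (limma adjusted p = 0.00714) and by 1.08 ± 0.20 from stage I to IV (adjusted p = 0.00335). Without stage III replicate 2 the step from III to IV was 1.03 with an adjusted p of 0.0589.

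pabpc1b had the largest change of any member. It measured 1.19 and 1.30 TPM at stage I, 2.01 and 1.88 TPM at stage II, 19.5 and 12.3 TPM at stage III and 248 and 100 TPM at stage IV. Every stage lay above the one before without overlap, and the 2 libraries of stage IV differed from each other by more than any earlier pair. It rose by 2.49 ± 0.43 from stage II to III (limma adjusted p = 0.0277), by 3.27 ± 0.43 from III to IV (adjusted p = 0.00188) and by 6.14 ± 0.43 from I to IV (adjusted p = 5.25e-05) on the log2(TPM + 1) scale. Leaving out any 1 of the 4 libraries of stages II and III ended the call from II to III, with adjusted p-values of 0.196 and 0.148 without stage II replicates 1 and 2 and of 0.228 and 0.0811 without stage III replicates 1 and 2. Relative to pabpc1a it went from 0.207% at stage I and 0.386% at stage II to 2.57% at stage III and 13.1% at stage IV.

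The summed marker transcripts of the cells that surround the oocyte were higher in the same libraries, though not every marker was. The 10 follicle cell markers summed to 8.46 and 14.5 TPM at stage I, 18.9 and 27.3 TPM at stage II, 213 and 152 TPM at stage III and 383 and 394 TPM at stage IV. Of these 10, 3 reached 1 TPM in each library of stages I and II (gsdf and foxl2b throughout, with inha at stage I and cyp19a1a at stage II), 8 at stage III and 9 at stage IV. By values looked up afterwards, the stage IV sums came mostly from inha (173 and 172 TPM), hsd3b1 (87.4 and 75.8 TPM) and foxl2b (67.2 and 64.1 TPM). Other follicle markers were lower at stage IV than at stage III: cyp19a1a went from 127 and 82.8 TPM to 1.07 and 9.01 TPM, and gsdf from 12.4 and 12.1 TPM to 2.50 and 6.01 TPM. lhcgr was listed at 0 in both stage I libraries and in stage II replicate 1. The 5 stroma and vessel wall markers summed to between 3.92 and 10.9 TPM at stages I and II, between 91.9 and 107 TPM at stage III and between 135 and 247 TPM at stage IV. The red blood cell markers summed to between 4.70 and 9.82 TPM at stages I and II, to 87.6 and 41.6 TPM at stage III and to 214 and 1070 TPM at stage IV, and the 5 immune markers to between 4.31 and 9.04, between 16.7 and 23.3 and between 98.1 and 116 TPM. Summed oocyte markers were lower at stage IV, at 2263 and 3210 TPM, than at stage I, at 6544 and 6264 TPM. By values looked up afterwards, zp3b went from 3560 and 2997 TPM to 644 and 1158 TPM, and zar1 from 1342 and 1748 to 117 and 173 TPM. gdf9, bmp15, figla and ddx4 were also lower at stage IV than at stage I. buc went the other way, from 1189 and 1089 TPM to 1264 and 1613 TPM. The stage IV library with more pabpc1b (248 TPM) had the smaller sums of stroma and red blood cell markers, nearly the same follicle sum and the larger immune sum, 116 against 98.1 TPM. The part of these cells in the rise of pabpc1b and pabpc1a was not tested. At 0 hpf, in the separately normalised embryo table, follicle markers summed to between 1.27 and 2.20 TPM and pabpc1b measured at most 1.42 TPM.

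**Figure D2:**
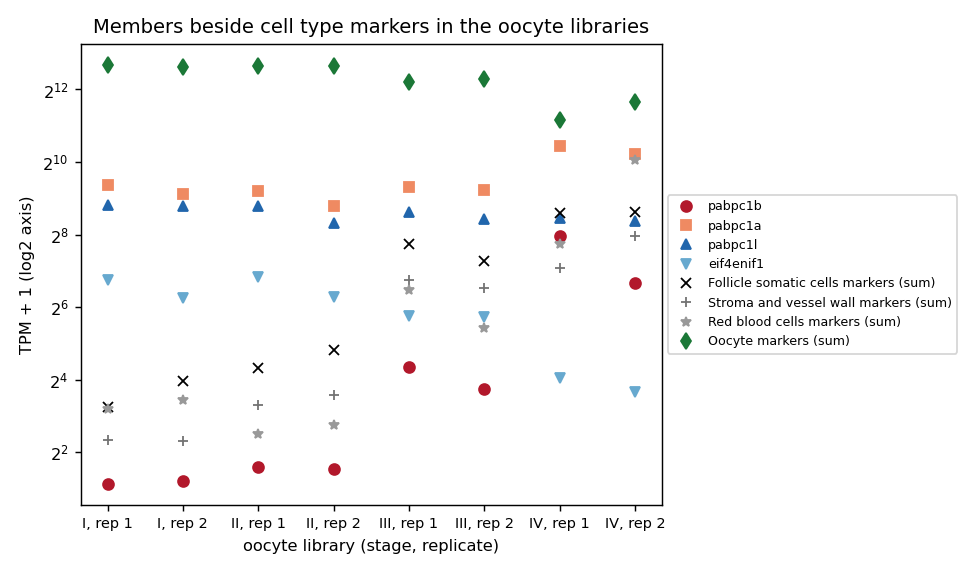
TPM + 1 on a log2 axis in each of the 8 oocyte libraries for pabpc1b, pabpc1a, pabpc1l and eif4enif1 and for the summed markers of oocytes, follicle cells, stroma and vessel wall, and red blood cells. pabpc1b and the 3 somatic sums are all highest at stage IV, while eif4enif1 and the summed oocyte markers are lowest there.

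The balance of oocyte-type to general poly(A)-binding protein transcripts was measured within each library as log2 of pabpc1l over the sum of pabpc1a and pabpc1b, with 1 TPM added above and below. Apart from that addition, such a ratio does not depend on how a library is scaled. In oocytes it was -0.45 ± 0.16 at stage I, -0.44 ± 0.04 at stage II, -0.78 ± 0.09 at stage III and -2.08 ± 0.20 at stage IV (SD, n = 2). In embryos it was -0.78 ± 0.14 at 0 hpf, -1.09 ± 0.04 at 2 hpf, -1.99 ± 0.12 at 4 hpf and -4.98 ± 0.23 at 6 hpf (SD, n = 3). The general forms were in excess in every group, the 4 embryo times did not overlap, and among the oocytes only stages I and II did. In shares of the cytoplasmic sum with pabpc4, pabpc1l went from 42.3% at stage I to 19.1% at stage IV, and from 36.8% at 0 hpf to 2.88% at 6 hpf. At stage IV pabpc1a and pabpc1b rose in libraries where the summed markers of surrounding cells were also higher. The part of those cells in the oocyte ratio was not tested.

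Exact permutation tests asked whether the groups of a table differ in this ratio, with p-values adjusted over 6 tests (a pair of ratios in 3 tables). The embryo ratio gave an exact permutation p = 6.49e-05 over 369600 reassignments, which is the smallest value possible there (adjusted p = 0.00039). It also passed with libraries reassigned only within replicate numbers (exact permutation p = 0.00174, adjusted p = 0.00521). The oocyte ratio gave an exact permutation p = 0.0286 over 2520 reassignments (adjusted p = 0.0429), where the smallest possible is 0.00952. In the same exact permutation test that call was lost without either replicate of stage II (adjusted p = 0.0571 each) and without stage III replicate 2 (adjusted p = 0.0857). With libraries reassigned only within replicate numbers, the oocyte ratio had an exact permutation p = 0.0833 (adjusted p = 0.125). The smallest exact permutation p possible there, 0.0417, comes to an adjusted p of 0.0625, so no oocyte ratio could have passed. No label ties those numbers to a shared source. The difference between the last and the first group, which was not itself tested, was -4.20 in embryos and -1.63 in oocytes on the log2 scale.

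**Figure D3:**
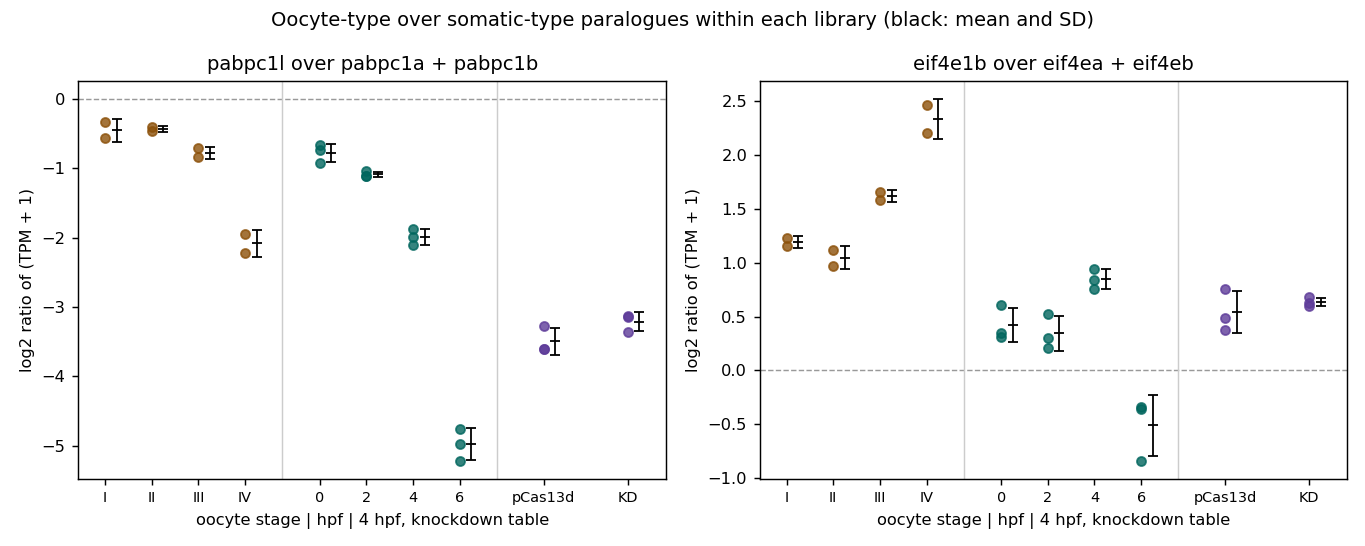
Log2 ratio of oocyte-type to general transcripts in each library, pabpc1l over pabpc1a + pabpc1b on the left and eif4e1b over eif4ea + eif4eb on the right; coloured points are libraries, black bars are means and SD, and the dashed line marks equal levels. The left ratio is below 0 in all 26 libraries and lowest at 6 hpf, whereas the right ratio is above 0 in every library except the 3 of 6 hpf.

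The cap-binding transcripts behaved differently. eif4e1b, the oocyte-type form, measured 441 and 486 TPM at stage I, 373 and 469 TPM at stage II, 351 and 405 TPM at stage III and 356 and 347 TPM at stage IV. Both stage IV libraries lay below both of stage I, by a log2 change of -0.40 ± 0.17 (SE, limma adjusted p = 0.0903) that did not pass the threshold. In embryos it measured 70.9, 69.2 and 65.6 TPM at 0 hpf, 63.6, 55.4 and 51.8 TPM at 2 hpf, 44.6, 42.3 and 45.3 TPM at 4 hpf and 24.7, 25.7 and 19.9 TPM at 6 hpf. The 4 embryo times did not overlap, each lower than the one before. It fell by 0.36 ± 0.11 on the log2 scale from 2 to 4 hpf (limma adjusted p = 0.0114) and by 0.89 ± 0.11 from 4 to 6 hpf (adjusted p = 6.23e-06). These falls were close to that of the median gene: relative to it they were 0.08 and -0.33, and after scaling they were 0.21 (not called, and of the opposite sign) and -0.05 (not called). Without 2 hpf replicate 1 the first was -0.28 with an adjusted p of 0.0611. From 0 to 6 hpf it changed by -1.52 ± 0.11 (limma adjusted p = 1.86e-08), or -0.45 relative to the median gene, and by -0.09 and not called after scaling (adjusted p = 0.428).

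eif4ea, a general form, fell over the oocyte stages, and in the embryo it fell to 4 hpf and rose to 6 hpf. It measured 146 and 159 TPM at stage I, 137 and 164 TPM at stage II, 64.6 and 84.8 TPM at stage III and 26.3 and 21.5 TPM at stage IV. Stages I and II overlapped, and each later stage lay below. The log2 change was -1.01 ± 0.19 from stage II to III (limma adjusted p = 0.0412), -1.60 ± 0.19 from III to IV (adjusted p = 0.00138) and -2.63 ± 0.19 from I to IV (adjusted p = 6.28e-05). The first of these was not called after scaling (-0.84, adjusted p = 0.126), with no filter (0.0952) or no mean trend (0.0724), nor without stage II replicate 1 or 2 (0.184 and 0.213) or stage III replicate 1 or 2 (0.301 and 0.0813).

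In the embryo eif4ea measured 15.9, 12.6 and 12.4 TPM at 0 hpf, 12.1, 11.0 and 12.2 TPM at 2 hpf, 4.83, 4.23 and 4.4 TPM at 4 hpf and 24.5, 25.03 and 26.9 TPM at 6 hpf. The 4 hpf libraries were the lowest and the 6 hpf libraries the highest, with no overlap. It fell by 1.22 ± 0.12 on the log2 scale from 2 to 4 hpf (limma adjusted p = 2.87e-06) and rose by 2.27 ± 0.12 from 4 to 6 hpf (adjusted p = 3.20e-09), or by -0.78 and 2.83 relative to the median gene, and both calls held after scaling, at -0.69 and 3.12. From 0 to 6 hpf it rose by 0.86 ± 0.12 (adjusted p = 1.43e-05), or by 1.93 relative to the median gene. Its rise from 4 to 6 hpf was the largest of any member in the embryo.

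eif4eb, the other general form, was not called in oocytes and fell in the embryo. It lay between 40.6 and 52.7 TPM in all 8 oocyte libraries, and the change from stage I to IV was -0.13 ± 0.17 (SE, limma adjusted p = 0.539). In embryos it measured 41.1, 32.5 and 38.8 TPM at 0 hpf, 31.98, 33.9 and 32.4 TPM at 2 hpf, 19.7, 17.3 and 21.9 TPM at 4 hpf and 6.89, 8.14 and 9.38 TPM at 6 hpf. The first pair of times overlapped and the later ones were lower without overlap. Its log2 change was -0.72 ± 0.13 from 2 to 4 hpf (limma adjusted p = 0.000419, and -0.15 and not called after scaling), -1.18 ± 0.13 from 4 to 6 hpf (adjusted p = 2.56e-06) and -2.08 ± 0.13 from 0 to 6 hpf (adjusted p = 5.29e-09). Relative to the median gene these were -0.28, -0.62 and -1.01, and the later pair were still called after scaling, at -0.38 and -0.71. The general forms thus exchanged places: eif4ea lay above eif4eb in both libraries of stages I, II and III and below it at stage IV, then below it in every library from 0 to 4 hpf and above it in all 3 at 6 hpf.

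The log2 ratio of eif4e1b to the sum of eif4ea and eif4eb was 1.19 ± 0.05 at stage I, 1.05 ± 0.11 at stage II, 1.62 ± 0.06 at stage III and 2.33 ± 0.18 at stage IV (SD, n = 2). In embryos it was 0.42 ± 0.16 at 0 hpf, 0.34 ± 0.16 at 2 hpf, 0.85 ± 0.09 at 4 hpf and -0.51 ± 0.28 at 6 hpf (SD, n = 3). With eif4e1c not counted, eif4e1b thus exceeded the sum of these general forms in every library until 4 hpf, and the 6 hpf libraries lay below all the others. How reads were split in counting between eif4e1b, eif4ea, eif4eb and eif4e1c could not be checked. The exact permutation test gave p = 0.000325 in embryos (adjusted p = 0.000974) and p = 0.00952 in oocytes, the smallest possible (adjusted p = 0.019). With libraries reassigned only within replicate numbers, the embryo ratio passed (exact permutation p = 0.00521, adjusted p = 0.0156). The oocyte ratio could not have passed then, as its exact permutation p = 0.0417 is the smallest possible there (adjusted p = 0.0625). Which general form is counted decides the direction of change: against eif4ea alone the change from 0 to 6 hpf was -2.38, and against eif4eb alone it was 0.56. From stage I to IV these were 2.23 and -0.26. The exact permutation test asks whether any groups of a table differ, and does not test these changes or their direction. Against eif4eb alone it gave an adjusted p of 0.0519 in embryos and 0.514 in oocytes.

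eif4e1c, a further eIF4E gene of fish that was not among the 9, was more abundant than either general form in all 26 libraries. Its mean was 244, 263, 260 and 218 TPM at stages I to IV, and 141, 141, 122 and 127 TPM at 0, 2, 4 and 6 hpf. Its log2 change from 2 to 4 hpf, -0.21 ± 0.09 (SE, limma adjusted p = 0.0456), turned to a called rise of 0.37 after scaling, and that from 0 to 6 hpf, -0.15 ± 0.09 (adjusted p = 0.102), to a called rise of 1.30. Adding it to the general forms left the eif4e1b ratio at a change of -1.26 from 0 to 6 hpf and at 0.23 from stage I to IV. The exact permutation test over all groups of a table then gave an adjusted p of 0.00779 in embryos and 0.214 in oocytes. The oocyte call was thus lost. Of the sum of eif4e1b, eif4ea, eif4eb and eif4e1c, eif4e1b was 50.9%, 47.3%, 49.7% and 55.0% at stages I to IV. At 0, 2, 4 and 6 hpf it was 26.3%, 23.5%, 23.2% and 12.8%. The further eIF4E genes eif4e2, eif4e2rs1 and eif4e3 are not in this sum.

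eif4enif1 was lowest in the most advanced oocytes. It measured 106 and 75.2 TPM at stage I, 114 and 76.5 TPM at stage II, 53.1 and 52.2 TPM at stage III and 15.5 and 11.7 TPM at stage IV. Stages I and II overlapped, and stages III and IV each lay below. It fell by 1.89 ± 0.25 on the log2 scale from stage III to IV (limma adjusted p = 0.0021) and by 2.64 ± 0.25 from stage I to IV (adjusted p = 0.000195). The change from II to III, -0.81 ± 0.25, was not called (adjusted p = 0.152). From stage I to IV eif4ea changed by -2.63 and eif4e1b, whose protein is a partner of 4E-T in zebrafish, by -0.40. The differences between these changes were not tested.

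In embryos eif4enif1 measured 104, 101 and 95.4 TPM at 0 hpf, 101, 104 and 93.9 TPM at 2 hpf, 52.1, 44.4 and 64.8 TPM at 4 hpf and 23.8, 33.0 and 28.6 TPM at 6 hpf. The first pair of times overlapped and the later ones each lay lower. The log2 change was -0.89 ± 0.14 from 2 to 4 hpf (limma adjusted p = 0.000113) and also -0.89 ± 0.14 from 4 to 6 hpf (adjusted p = 5.59e-05), or -0.46 and -0.33 relative to the median gene. After scaling the second step was -0.04 and not called. From 0 to 6 hpf it fell by 1.79 ± 0.14 (limma adjusted p = 3.82e-08), or -0.73 relative to the median gene. The level at 0 hpf stands in another table than that of stage IV, and the 2 were not compared by a test.

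pabpn1, the nuclear form, lay between 151 and 219 TPM in the 8 oocyte libraries, and its log2 change from stage I to IV was -0.40 ± 0.14 (SE, limma adjusted p = 0.0437). That call was lost after scaling (-0.35, adjusted p = 0.0816), and without stage I replicate 1 (-0.32, adjusted p = 0.141), stage IV replicate 1 (-0.45, adjusted p = 0.0794) or stage IV replicate 2 (-0.36, adjusted p = 0.131). In embryos it measured 88.4, 86.5 and 91.0 TPM at 0 hpf, 88.3, 90.5 and 94.6 TPM at 2 hpf, 65.4, 58.0 and 67.6 TPM at 4 hpf and 82.3, 87.3 and 80.5 TPM at 6 hpf. The 4 hpf libraries were the lowest, and the other times lay close together. It fell by 0.51 ± 0.08 on the log2 scale from 2 to 4 hpf (limma adjusted p = 0.000119), a change that was -0.078 relative to the median gene and 0.063 and not called after scaling. It rose by 0.39 ± 0.08 from 4 to 6 hpf (adjusted p = 0.000619), or by 0.94 relative to the median gene. From 0 to 6 hpf it was -0.09 ± 0.08 (adjusted p = 0.304), or 0.98 relative to the median gene, and turned to a called rise of 1.36 after scaling.

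pabpn1l, a pabpn1-like gene of the list of partners and relatives, went a different way from pabpn1. Its mean was 305 ± 26.6 TPM at 0 hpf, 300.0 ± 4.14 TPM at 2 hpf, 168 ± 19.6 TPM at 4 hpf and 14.2 ± 1.47 TPM at 6 hpf (SD, n = 3). It fell by 3.47 ± 0.10 on the log2 scale from 4 to 6 hpf (limma adjusted p = 1.13e-10), and was -2.65 after scaling. From stage I to IV it fell by 0.73 ± 0.20 (adjusted p = 0.0192; not called after scaling, adjusted p = 0.0764).

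**Figure D4:**
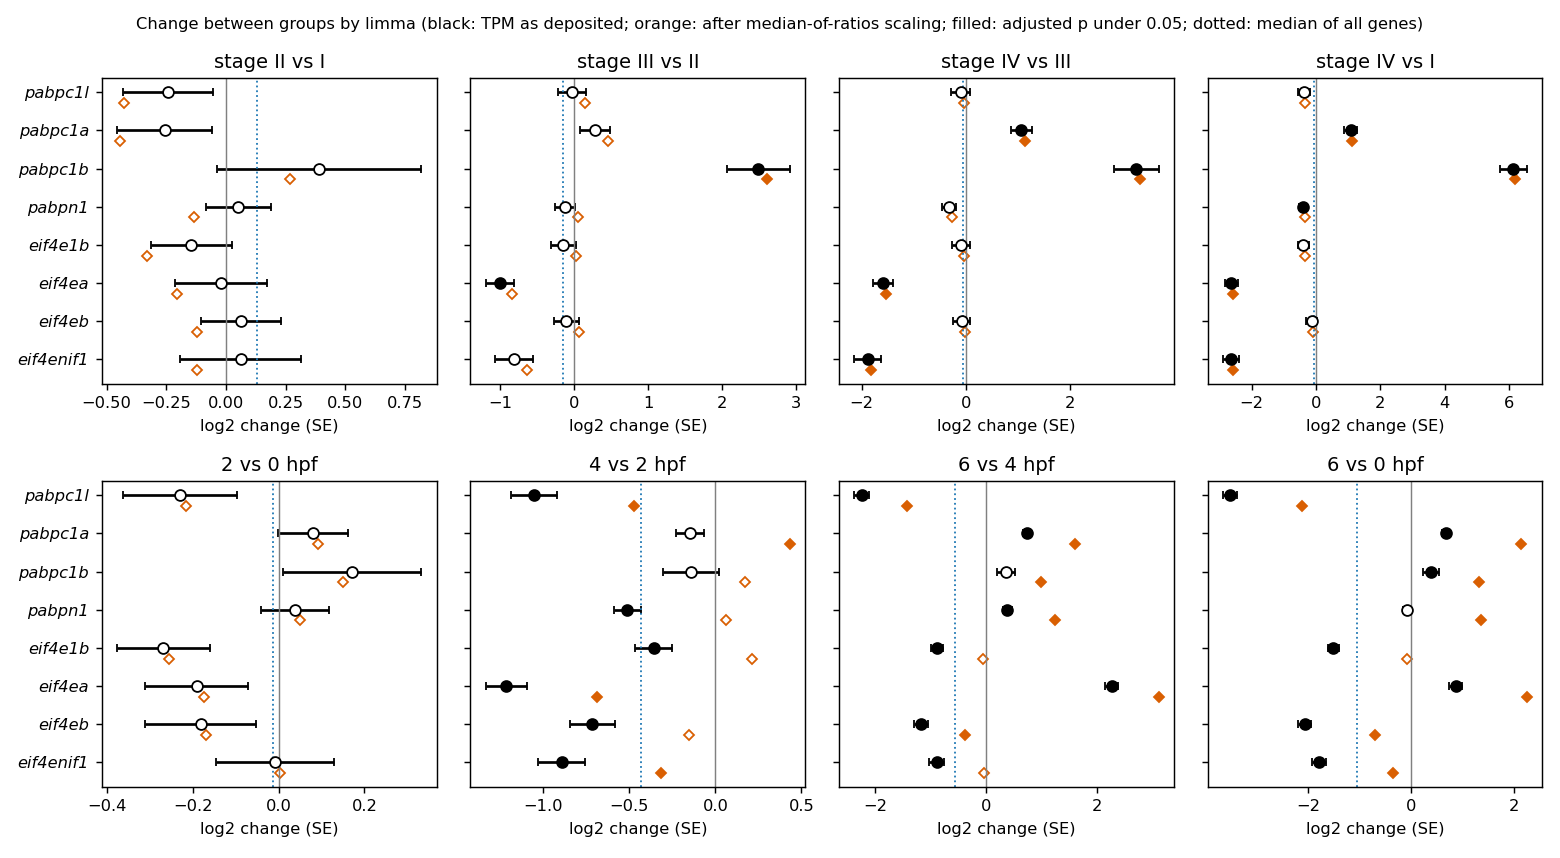
Log2 change of the 8 tested members in each of the 8 oocyte and embryo comparisons; circles are TPM as deposited with SE, diamonds are values after median-of-ratios scaling, filled symbols passed an adjusted p of 0.05 and the dotted line is the median of all genes. The horizontal axes differ between panels. In the comparisons of 4 and 6 hpf every diamond lies to the right of its circle.

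Knockdown of znf281b at 4 hpf changed no member at the threshold. The target itself still measured 149, 147 and 171 TPM there, against 219, 269 and 267 TPM with pCas13d alone. limma called 0 of the 8 tested, and 0 after scaling. Of all 15068 genes 6.32% rose and 3.05% fell (952 and 459 genes, or 730 and 580 after scaling). With only 8 members tested, 0 calls beside these shares does not set the members apart from other genes. At an unadjusted p under 0.05 there were 0 members, against 4145 of all 15068 genes. The lowest limma adjusted p was 0.184, for pabpn1 (log2 change -0.17 ± 0.07, SE). pabpn1 measured 220, 217 and 232 TPM with pCas13d alone and 200, 195 and 200 TPM in the knockdown libraries, without overlap. pabpc1a measured 1202, 1406 and 1422 TPM with pCas13d alone and 1216, 1189 and 1188 TPM in the knockdown (-0.16 ± 0.08, adjusted p = 0.224), and the groups overlapped. The log2 changes of the 8 members lay between -0.37 (pabpc1b, SE 0.21) and 0.12 (pabpc1l, SE 0.09), with SEs from 0.07 to 0.21.

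The paralogue ratios did not differ detectably in the knockdown either. The pabpc1l ratio was -3.50 ± 0.19 with pCas13d alone and -3.21 ± 0.13 in the knockdown (SD, n = 3, exact permutation p = 0.2, adjusted p = 0.24). The eif4e1b ratio was 0.54 ± 0.20 and 0.63 ± 0.04 (exact permutation p = 0.5, adjusted p = 0.5). With 3 libraries against 3 the smallest possible p is 0.1, so no ratio could have passed. Beside these, wild-type embryos of the same age in the embryo table had a pabpc1l ratio of -1.99 and an eif4e1b ratio of 0.85. Mean pabpc1a was 1343 TPM with pCas13d alone and 259 TPM in those wild-type embryos, while mean pabpc1l was 118 and 65.1 TPM. The knockdown libraries were read on another sequencer, and the tables were not compared by a test.

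The wider apparatus of cap and tail binding was followed in 6 lists of 55 gene names. Of these names 50 were found, and 49 passed the filter in embryos and 48 in oocytes and in the knockdown table. From 2 to 4 hpf 4 of 49 rose and 32 fell, against the 11% and 54.7% of all genes given above. After scaling 15 of 48 rose and 10 fell, beside 4235 and 3540 of all 16393 genes. From 4 to 6 hpf 13 rose and 25 fell, against 22.8% and 55.8% of all genes. Scaling made these 27 and 15 of 48, beside 7116 and 5911 of all 16393 genes. From stage I to IV 5 of 48 rose and 19 fell, against 22.9% and 22.4% of all genes, and the median log2 change was -0.48 against -0.07 for all genes. Between 0 and 2 hpf and between stages I and II limma called 0 of them.

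Among the partners of eIF4E in the eIF4F complex, 6 of 11 rose and 4 fell from 4 to 6 hpf, against 22.8% and 55.8% of all genes, with a median log2 change of 0.42 against -0.56 for all genes. After scaling 8 rose and 1 fell, beside 7116 and 5911 of all 16393 genes. The largest rise was that of eif4a2, an RNA helicase gene, from 8.72 ± 2.74 TPM to 34.9 ± 6.34 TPM (SD, n = 3), a log2 change of 1.91 ± 0.21 (SE, limma adjusted p = 2.94e-06). From stage I to IV 1 of the 11 rose and 6 fell, against 22.9% and 22.4% of all genes, with a median of -0.60 against -0.07. eif4a1a, the gene of a second helicase copy, changed by -0.78 ± 0.15 from stage II to III (adjusted p = 0.0429), a call lost after scaling (adjusted p = 0.13).

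Of the 12 regulators that bind or modify eIF4E, 3 rose and 6 fell from 4 to 6 hpf, against 22.8% and 55.8% of all genes. After scaling 7 rose and 4 fell, beside 7116 and 5911 of all 16393 genes. mknk2a, a kinase gene whose mammalian counterpart phosphorylates eIF4E, went from 351 ± 7.14 TPM at 0 hpf and 169 ± 38.0 TPM at 4 hpf to 8.48 ± 2.68 TPM at 6 hpf, a log2 change of -4.19 ± 0.19 from 4 to 6 hpf (limma adjusted p = 1.05e-09). eif4ebp3, the gene of an eIF4E-binding repressor, rose by 0.53 ± 0.14 from 2 to 4 hpf (adjusted p = 0.00509). In oocytes mknk2b rose from 19.9 ± 5.0 TPM at stage III to 61.2 ± 1.94 TPM at stage IV (SD, n = 2; log2 change 1.60 ± 0.38, adjusted p = 0.0178). mknk1 fell from 37.6 ± 3.30 TPM at stage I to 5.69 ± 1.23 TPM at stage IV (log2 change -2.54 ± 0.29, adjusted p = 0.000404).

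Of the 6 tested genes of cytoplasmic polyadenylation, which lengthens the tails of stored mRNAs, 5 fell from 2 to 4 hpf and 0 rose, against 54.7% and 11% of all genes, and their median was -0.82 against -0.43 for all genes. After scaling 0 of 5 rose and 3 fell, beside 4235 and 3540 of all 16393 genes. tent2, the gene of a cytoplasmic poly(A) polymerase, went from 109 ± 5.64 TPM to 30.6 ± 4.90 TPM (log2 change -1.80 ± 0.11, SE, limma adjusted p = 3.55e-08, and -1.23 after scaling). In oocytes 0 of 5 rose and 2 fell from stage I to IV, against 22.9% and 22.4% of all genes. cpeb4a, the gene of a protein that binds polyadenylation elements, fell from 96.6 ± 4.28 TPM at stage III to 32.7 ± 9.14 TPM at stage IV (log2 change -1.56 ± 0.27, adjusted p = 0.00496). Of the poly(A)-binding protein partners and relatives 0 of 14 rose and 9 fell from 2 to 4 hpf, of the other eIF4E genes 0 of 4 rose and 4 fell, and both tested nuclear cap-binding genes fell. After scaling these counts were 3 up and 4 down, 1 up and 1 down, and 1 up and 0 down, beside the same scaled counts of all genes.

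In the knockdown 3 of the 48 tested genes of these lists rose and 1 fell, against 6.32% and 3.05% of all genes, and scaling left the counts as they were. mknk2b rose from 120 ± 13.3 TPM to 237 ± 15.1 TPM (SD, n = 3; log2 change 0.98 ± 0.10, SE, limma adjusted p = 0.00253), and eif4a2 fell from 12.5 ± 4.77 TPM to 4.02 ± 1.30 TPM (log2 change -1.40 ± 0.28, adjusted p = 0.0225). The other pair, named after their values were seen, were cpeb1b (0.98 ± 0.22, adjusted p = 0.0314) and cpeb4a (0.58 ± 0.11, adjusted p = 0.0171), which both encode proteins that bind polyadenylation elements.

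The embryo courses of the members were set beside those of 8864 genes that averaged 10 TPM or more, by the root mean square difference of log2(TPM + 1) over the 12 libraries after each gene was centred on its own mean. Closest to pabpc1l were alkbh8, scnm1 and bivm (0.10 to 0.11), and closest to pabpc1a were ran, smarce1 and eef2b (0.07 each). Closest to eif4e1b were mad2l2, marc1 and flr (0.08 to 0.11), and closest to eif4ea were snrpg, polr2eb and si:ch211-286b5.5 (0.16 to 0.19), the loosest match of any member. eif4eb lay nearest to tmem167b, zgc:103482 and gpr108 (0.11 to 0.12), and eif4enif1 to b4galt7, sars1 and acvr2aa (0.07 each). pabpn1 lay nearest to zgc:86598, g3bp1 and bcas2 (0.07 each), and pabpc1b to nfyc, carm1 and sf3b3 (0.12 to 0.13). pabpc1b itself averaged 1.51 TPM in the embryo, below the 10 TPM asked of its neighbours. At that level the added 1 TPM flattens its course.

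Among the members themselves the most alike courses were those of eif4eb and eif4enif1, which differed by 0.17 and put eif4enif1 at rank 145 of the 8864 genes by nearness to eif4eb. pabpc1a and pabpc1b differed by 0.20, a distance that the low level of pabpc1b makes smaller on the log2(TPM + 1) scale. The least alike were pabpc1l and eif4ea, at 1.92. The oocyte-type pair was not close: pabpc1l and eif4e1b differed by 0.85, whereas eif4e1b differed from eif4enif1 by 0.27 and from eif4eb by 0.31. All these genes share the same 12 libraries and their scaling, so the distances describe these courses only.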

How the data were processed

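RNA-seq values were TPM, which the authors deposited in 3 tables of genes by library. Per the submitters' processing notes, STAR 2.7.3a and RSEM were used with the genome build danRer11, and the annotation release is not given in the sources used here. Whole-number read counts were not used here, so depth is unknown and no count model was run. Libraries were mapped to groups by their titles, and 0 columns belonged to no sample. Values were moved to log2(TPM + 1), and limma (version 3.58.1, under R 4.3.3) fitted each table once, its empirical Bayes variance following the mean. Fold changes on this scale understate the change of low genes. Genes needed 1 TPM in at least as many libraries as the smallest group holds. Benjamini-Hochberg p-values were adjusted over all genes tested, and a call needed an adjusted p under 0.05 with no minimum fold. Each limma fit used all groups of its table. The tables were normalised separately, and no test crosses them.

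Paralogue ratios were compared by 2-sided exact permutation tests of the between-group sum of squares in Python 3.11.15 with numpy 2.4.6. Scaling as an alternative used median-of-ratios factors over genes above 0 in every library. Other alternatives were a pseudocount of 0.1, no filter, a filter at 5 TPM, no mean trend, the replicate number as a block, only the compared groups, each library left out in turn, and other choices of the general paralogues. The limma fit was tested on simulated data in which few genes changed, and the exact permutation test on random values. The broad shifts of the embryo after 2 hpf were not simulated. Same-numbered libraries of 4 and 6 hpf deviated together from their group means (correlations of 0.320, 0.127 and 0.180 across genes), so that they may be pairs, a reading from the data and not from the labels; the block changed no member call there. No library pair was identical, and libraries of a group correlated at 0.9755 to 0.9949 across genes.

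All 9 members were named throughout, and the 3 genes nearest to each in the embryo. Of the 6 lists, the called genes with the largest rise and largest fall in each comparison were named where they reached 10 TPM, together with eif4e1c and pabpn1l. The members, lists and marker genes were chosen with earlier results of these data known.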

Additional observations from a re-analysis of the deposited data

How the results depend on the processing

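Among called member values under the alternatives, 349 kept their sign and call, 29 kept their sign but lost the call, and 2 changed sign. Under median-of-ratios scaling pabpc1a from 2 to 4 hpf turned to 0.43 (limma adjusted p = 0.000357), pabpn1 to 0.063 (0.535) and eif4e1b to 0.21 (0.116), and pabpn1 from 0 to 6 hpf to 1.36 (4.53e-09). The 2 members called between stages II and III became 0 with no filter, 1 after scaling, 1 without a mean trend and 0 without any 1 of the 4 libraries of those stages (limma, which then assumes that the lone library varies like the others).

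The oocyte pabpc1l ratio, -1.63, ranged from -1.77 to -1.49 with 1 library left out. Against eif4eb alone the change of the eif4e1b ratio from the first to the last group reversed to 0.56 in embryos and to -0.26 in oocytes. The exact permutation test over all groups of a table then gave adjusted p = 0.0519 and 0.514. With eif4e1c added the oocyte change was 0.23, and the same test fell short (adjusted p = 0.214).

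The labels do not say that a replicate number marks a shared source. Same-numbered deviations correlated at -0.204 to 0.320 in embryos, -0.111 to 0.437 in oocytes and -0.0155 to 0.135 in the knockdown table. In embryos 9 of 18 were highest with their own number, all 9 of them among 0, 4 and 6 hpf, and none with 2 hpf. Among compared groups only 4 and 6 hpf were treated as possible pairs. Between 0 and 6 hpf the correlations were 0.086, 0.092 and 0.144, each highest with its own number. Between stages I and II the value was 0.437, and with 2 libraries per stage both replicate numbers give the same value. With the replicate block neither oocyte ratio passed the threshold (-1.63, adjusted p = 0.125, and 1.14, adjusted p = 0.0625, exact permutation). The second has the smallest p the block allows, 0.0417 before adjustment, so neither could have passed. No member call changed under the block.

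Counts over all genes moved under scaling in the embryo from 2 hpf on, as given above. They also moved between neighbouring oocyte stages and in the knockdown. Between stages I and II 25 genes were higher and 3 lower by limma, 0 and 0 with no filter or without either stage II library, 2 and 1 after scaling, 17 and 1 with no mean trend, and 50 and 10 and 15 and 2 without stage I replicates 1 and 2. Between stages II and III 322 and 85 became 104 and 23 with no filter and 529 and 328 with only those stages fitted. With 1 library left out they were 17 and 1 and 42 and 4 (stage II replicates 1 and 2), and 7 and 1 and 100 and 22 (stage III replicates 1 and 2). Between stages III and IV 2298 and 2140 became 1169 and 964 and 967 and 855 without stage III replicates 1 and 2, and 1488 and 1099 without stage IV replicate 1. Between 0 and 2 hpf 0 and 2 became 2 and 9 with only those times fitted, 0 and 5 with no filter, 1 and 3 with a pseudocount of 0.1 and 0 and 1 without 2 hpf replicate 3. For the knockdown 952 and 459 became 305 and 226 with no filter, and from 142 and 155 (without znf281b KD replicate 2) to 1695 and 670 (without pCas13d alone replicate 2) with 1 library left out. Without pCas13d alone replicate 1 they were 295 and 253, and without znf281b KD replicates 1 and 3 171 and 185 and 308 and 209. With 2 libraries per oocyte stage and no known depth, small changes and those of low transcripts could not be resolved.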
